A study of Mus musculus with 16 samples.

Results

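Integrins are adhesion receptors made of an alpha and a beta subunit, and 10 of their genes were followed in sorted natural killer (NK) cells: Itga1, Itga2, Itga4, Itgae, Itgal, Itgam, Itgax, Itgb1, Itgb2 and Itgb7. They were taken by symbol from a read-count table of 49671 genes, in which they fill 11 entries because 2 overlapping gene models carry the symbol Itgam. The 16 libraries form 4 groups of 4, described in the design text as biological replicates: axillary tumour-draining lymph nodes (LN) and lungs, each from mice given diphtheria toxin (DT) or PBS at T=0 and T=7. The labels give a dose of 25 µg DT at each time and state neither the unit of T nor the age of the mice. All mice, PBS controls included, were FVB/N of the genotype Cdh1F/F;Trp53F/F;Foxp3GFP-DTR and bore a KEP mammary tumour of 100 mm2, grown from an orthotopic transplant. The Foxp3GFP-DTR allele puts the toxin receptor in Foxp3-expressing cells, the regulatory T cells, so that DT removes these cells. A toxin-treated group without this allele was not analysed here. NK cells were sorted as live CD45+ CD3- NKp46+ DX5+ cells, 5-10K per sample, and sequenced with Smart-seq2. Lungs were digested with Liberase before the sort. The antigen of the DX5 antibody is the product of Itga2, so that gene was part of the gate, and a sort on DX5 can leave out group 1 innate lymphoid cells that lack it.

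Each of the beta subunits Itgb1, Itgb2 and Itgb7 pairs with alternative alpha subunits, and the pair decides what the cell can bind. In NK cells the beta2 partners Itgal, Itgam and Itgax make LFA-1, Mac-1 and the CD11c integrin, which bind ICAMs or complement fragments. The beta1 partners Itga1, Itga2 and Itga4 bind collagens or, for alpha4, VCAM-1 and fibronectin. Itgb7 pairs with Itga4 in a receptor for the mucosal addressin MAdCAM-1 and with Itgae in the CD103 integrin, which binds E-cadherin. Itgam (CD11b) is also used as a marker of NK cell maturation.

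The promoters of 5 genes are shown because these genes carry the comparisons below: Itgam and Itgax lie beside each other on chromosome 7 and differed in pattern, and Itgb1 and Itgb7 are the alternative beta partners of Itga4. Each is the 250 bases before the RefSeq start site in GRCm38.p6, written 5′ to 3′ on the gene's strand. The reference is of another strain than FVB/N. Of the 10 genes, 7 matched the RefSeq promoter table, and Itgae, Itgal and Itgb2 are named only. Capitals mark matches on either strand to 4 short motifs: a PU.1/ETS core (GAGGAA), a RUNX core (TGTGGT), a GC box (GGGCGG) and a T-box site (TCACAC).
Itgam, chr7:128062390-128062639, + strand: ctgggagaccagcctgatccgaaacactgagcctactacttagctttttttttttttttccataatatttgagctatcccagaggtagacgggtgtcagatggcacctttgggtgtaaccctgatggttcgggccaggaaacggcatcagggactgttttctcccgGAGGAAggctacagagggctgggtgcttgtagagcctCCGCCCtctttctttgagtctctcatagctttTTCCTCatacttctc
Itgax, chr7:128129300-128129549, + strand: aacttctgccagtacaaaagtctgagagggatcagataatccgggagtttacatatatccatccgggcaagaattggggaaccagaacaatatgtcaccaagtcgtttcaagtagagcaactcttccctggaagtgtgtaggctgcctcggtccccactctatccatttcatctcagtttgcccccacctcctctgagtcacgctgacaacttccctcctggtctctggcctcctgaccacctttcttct
Itga4, chr2:79255176-79255425, + strand: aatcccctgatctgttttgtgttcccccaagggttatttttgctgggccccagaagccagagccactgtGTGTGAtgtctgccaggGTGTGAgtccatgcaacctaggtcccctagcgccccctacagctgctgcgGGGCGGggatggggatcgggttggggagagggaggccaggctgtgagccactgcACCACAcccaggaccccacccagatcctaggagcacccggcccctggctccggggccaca
Itgb1, chr8:128685404-128685653, + strand: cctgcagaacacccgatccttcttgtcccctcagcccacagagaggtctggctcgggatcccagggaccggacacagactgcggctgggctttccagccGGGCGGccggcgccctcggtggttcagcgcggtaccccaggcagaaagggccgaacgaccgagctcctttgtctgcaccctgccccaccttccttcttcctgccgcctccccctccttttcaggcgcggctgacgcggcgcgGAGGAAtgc
Itgb7, chr15:102231936-102232185, - strand: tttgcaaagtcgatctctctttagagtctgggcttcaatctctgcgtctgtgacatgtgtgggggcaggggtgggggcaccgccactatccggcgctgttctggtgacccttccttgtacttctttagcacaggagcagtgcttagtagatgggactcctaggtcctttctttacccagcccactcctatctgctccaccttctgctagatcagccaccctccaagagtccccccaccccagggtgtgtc
The Itgam promoter held 2 PU.1/ETS cores, at positions -84 and -15 from the start site, and a GC box at -47. Neither Itgax nor Itgb7 held any of the 4 motifs in this window. Itga4 held a RUNX core at -60, a GC box at -114 and T-box sites at -181 and -164. Itgb1 held a PU.1/ETS core at -9 and a GC box at -151. Over all 32851 promoters of this length, 23.3% held the PU.1/ETS core, 14% the RUNX core, 32.7% the GC box and 12.3% the T-box site. A match describes the letters only and says nothing of binding.

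Total counts per library ran from 3929560 to 10744934, and 13940 genes, all 10 integrin genes among them, had enough counts to be tested. Levels are given as CPM, read counts scaled to the library sizes after TMM, in the order replicate 1 to 4. Mitochondrial genes took 1.05 to 1.68% of counts in LN PBS and 0.951 to 2.57% in lung PBS. They took 4.93, 4.18, 4.01 and 1.24% in LN DT and 3.11 to 4.40% in lung DT. The share thus went largely with treatment: the lung groups did not overlap, and in LN only LN DT 4 lay within the PBS range. A change with DT and a change with the mitochondrial share can therefore hardly be told apart, also in fits with the share as a covariate. The NK cell transcript Ncr1, which encodes the gate antigen NKp46, was abundant in all groups, with means from 3289 to 6079 CPM. In sorted populations such as these, fewer cells of a type and less RNA per cell cannot be told apart.

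Per kilobase of mRNA, Itgb2 stood highest of the 10 in all 4 groups, with means of 547 CPM per kb in LN with PBS and 373 with DT, and of 940 and 502 in lung. Its libraries overlapped those of the next gene in LN DT and in no other group. Below it came Itgb1, Itgb7 and Itgal, whose ranges overlapped each other in every group and whose means lay between 93.0 and 228 CPM per kb. Itga4 came next in every group, at 27.2 to 44.6 CPM per kb. In LN PBS it did not overlap either neighbour in the order, whereas in both lung groups it overlapped Itgam. Itga2, Itgam and Itgax followed, with means between 6.55 and 36.1 CPM per kb, then Itgae with 2.64 to 8.17. Itga1 was lowest throughout, with means of at most 0.313 CPM per kb. With exon length of all transcripts in place of mRNA length, near neighbours with overlapping ranges changed places and Itgb2 stayed first.

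**Figure D1:**
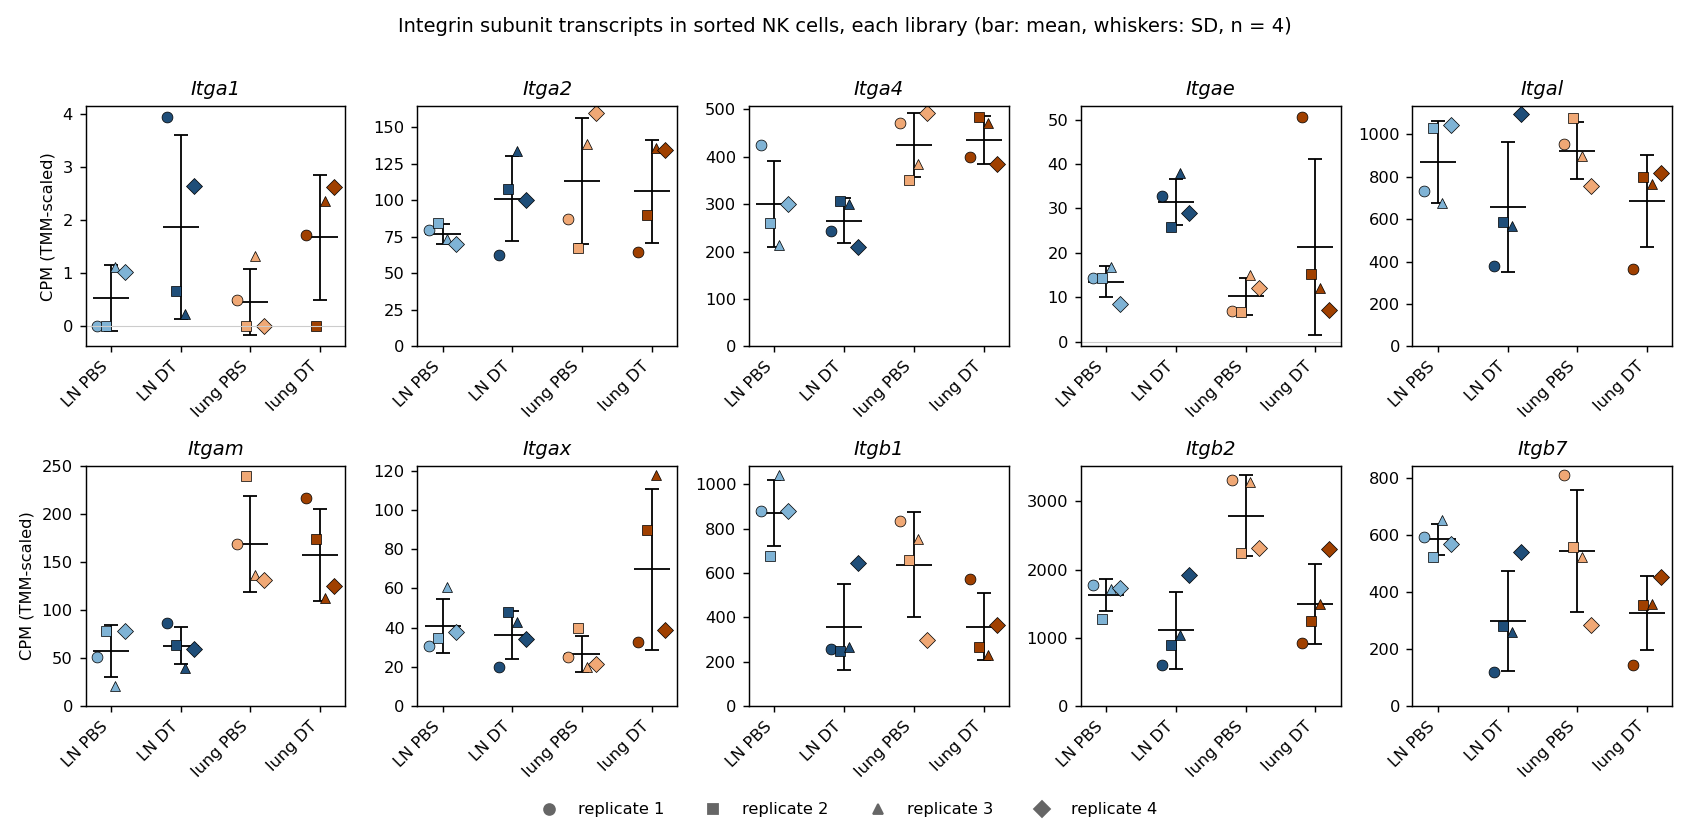
CPM of each of the 10 integrin genes (one panel per gene, linear axis) in the 16 libraries, by group; marker shapes give the replicate, the horizontal bar the mean and the whiskers the SD (n = 4). Itgam is higher in all 8 lung libraries (112.8 to 239.5 CPM) than in all 8 LN libraries (20.9 to 86.7 CPM).

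Itgam was the integrin gene that edgeR called between the tissues. It read 50.6, 78.4, 20.9 and 78.3 CPM in LN PBS, with a mean of 57.1 ± 27.4 (SD, n = 4). In lung PBS it read 168.9, 239.5, 136.1 and 131.1 CPM, with a mean of 169 ± 50.0. The groups did not overlap. Itgam rose 2.96-fold from LN to lung in mice given PBS, a log2 fold change of 1.56 ± 0.38 (SE), with an adjusted p of 0.0254 in edgeR's quasi-likelihood test with Benjamini-Hochberg adjustment. In mice given DT the LN libraries read 86.7, 63.8, 39.8 and 59.8 CPM (62.5 ± 19.2) and the lung libraries 216.5, 174.4, 112.8 and 124.7 CPM (157 ± 47.7). These groups did not overlap either, and Itgam was 2.51-fold higher in lung, with a log2 fold change of 1.33 ± 0.37 and an adjusted p of 0.0394 in the same test. With the replicate number as a block the adjusted p was 0.0171, but pairing of the libraries by number was not established. With the DT libraries alone in the fit and no block the adjusted p was 0.0737, which did not pass. The call in PBS mice was lost without LN PBS 1 (adjusted p = 0.0838), LN PBS 3 (0.0603), lung PBS 1 (0.0544) or lung PBS 2 (0.0799). The call in DT mice was lost without any of 7 libraries, at adjusted p from 0.0501 to 0.130: LN PBS 1, LN DT 2, LN DT 3, LN DT 4, lung PBS 1, lung DT 1 and lung DT 2.

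Transcripts of macrophages and monocytes, cells that also express Itgam, moved with the tissue. The summed level of their 10 markers was 37.3 to 358 CPM in LN with PBS and 111 to 257 with DT, and in lung 315 to 3623 with PBS and 148 to 4046 with DT. No marker of the list was at 0 in all 4 libraries of any group. Of the 10, edgeR called 3 higher in lung PBS than LN PBS, where 3.61% of all tested genes were called in either direction, and 4 in lung DT than LN DT (6.75%). In lung DT 4, where the list summed to 148 CPM, within the range of the LN libraries, Itgam read 124.7 CPM and lay above all 8 LN libraries. In that library 3 of the 10 markers also lay above all 8 LN libraries: Cd68 at 53.4 CPM (31.7 at most in LN), Mrc1 at 5.37 (0.905) and Fcgr1 at 2.23 (0.924). The other 7 lay within the LN range. The neutrophil list summed to at most 10.5 CPM in LN libraries and to 8.78 to 299 CPM in lung libraries. Its markers Ly6g, Retnlg, Mmp8, Ngp and Camp were at 0 in all LN libraries, and Camp also in lung. The part of these cells in the Itgam difference was not tested.

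The summed level of markers of type 1 innate lymphoid cells (ILC1), which share NKp46 with NK cells, was lower in lung. The list was split. Their 8 markers summed to 1473 to 1812 CPM in LN with PBS and 1024 to 1623 with DT, and in lung to 231 to 553 with PBS and 198 to 261 with DT, so the tissues did not overlap. No marker of the list was at 0 in a whole group. Of the 7 that were tested, edgeR called the same 3 lower in lung in both treatments: Il7r, Cxcr6 and Ltb. Of all tested genes it called 3.61% with PBS and 6.75% with DT, in either direction. Il7r is the interleukin-7 receptor chain, Cxcr6 a chemokine receptor and Ltb lymphotoxin beta. Ltb and Il7r had the highest means of the list in LN. With PBS, 3 of the 7 were higher in lung, not called: Rora (54.2 CPM in LN, 104 in lung), Tmem176a (22.8 and 36.1) and Tmem176b (48.5 and 62.7). With DT 1 was, Rora (78.1 and 115.5). With PBS, Il7r had 403 ± 103 CPM in LN and 32.6 ± 12.7 in lung (log2 fold change -3.63 ± 0.37, adjusted p = 1.52e-05), and Cxcr6 had 110 ± 36.1 and 6.16 ± 1.94 (-4.14 ± 0.77, adjusted p = 0.00458). The share of such cells in each library, and its part in the Itgam difference, were not tested.

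**Figure D2:**
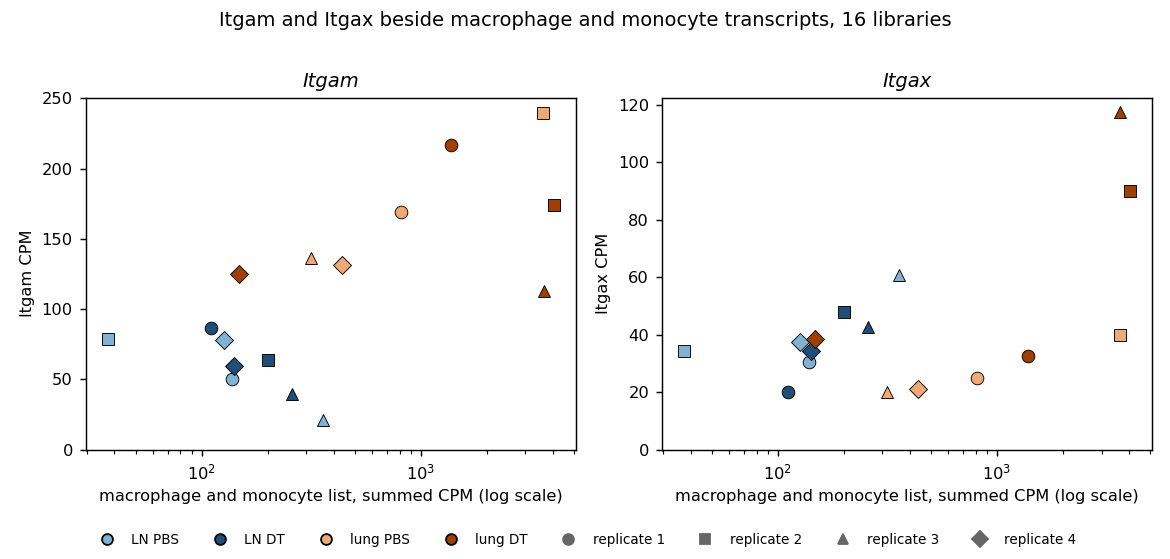
Itgam (left) and Itgax (right) in CPM against the summed CPM of 10 macrophage and monocyte markers (log axis) in the 16 libraries; colours give the group and shapes the replicate. The list sums are 37.3 to 358 CPM in the LN libraries and 148 to 4046 CPM in the lung libraries, and Itgax is highest in lung DT 2 and 3, whose list sums are 4046 and 3648 CPM.

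The count of Itgam may be understated. A second gene model with the same symbol, on chromosome 7 at 128062683 to 128128160, shares 3450 bases, 68.7% of the Itgam exon length, and the sources used here do not give how reads in shared exons were counted. The main model (ENSMUSG00000030786, chromosome 7, 128062640 to 128118491, + strand) held 13267 counts and the second (ENSMUSG00000108596) 133. The second model had 13 counts in LN with PBS and 8 with DT, and in lung 27 and 85. With both models summed the log2 fold change was 1.56 in PBS mice and 1.35 in DT mice.

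Itgb2, the shared beta subunit of LFA-1, Mac-1 and the CD11c integrin, read 1772, 1280, 1719 and 1731 CPM in LN PBS (1626 ± 231). In lung PBS it read 3321, 2241, 3286 and 2315 CPM (2791 ± 593), and the groups did not overlap. Its log2 fold change from LN to lung was 0.78 ± 0.34, with an adjusted p of 0.241, so it did not pass. With the mitochondrial share as a covariate it was 0.88 with an adjusted p of 0.0497. After DT it read 598.7, 887.9, 1034 and 1916 CPM in LN and 924.5, 1249, 1492 and 2304 CPM in lung, and both DT groups overlapped the PBS group of their tissue. The log2 fold change of DT against PBS was -0.55 ± 0.34 in LN (adjusted p = 0.554) and -0.90 ± 0.34 in lung (adjusted p = 0.242). With the mitochondrial covariate it was 0.20 in LN, with its direction turned, and -0.09 in lung. LN DT 4, with the highest value of its group, was also the LN DT library with the lowest mitochondrial share.

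Itgal (CD11a), the alpha chain of LFA-1, read 731.9, 1032, 676.6 and 1043 CPM in the nodes of PBS mice, and 956.0, 1078, 900.0 and 754.6 CPM in the lungs of that group. After DT it read 381.2, 587.2, 566.8 and 1097 CPM in LN and 363.8, 797.5, 765.8 and 817.1 CPM in lung. All 4 groups overlapped. The DT log2 fold change was -0.40 ± 0.32 in LN and -0.43 ± 0.32 in lung, with adjusted p of 0.655 and 0.552. With the mitochondrial covariate the direction turned in both, to 0.27 and 0.31. Lung against LN in PBS mice gave 0.08 ± 0.32 (adjusted p = 0.938). The log2 ratio of Itgam to Itgal CPM lay between -4.98 and -3.71 in LN PBS and between -2.72 and -2.17 in lung PBS, without overlap. Between LN DT (-4.19 to -2.13) and lung DT (-2.76 to -0.75) the ratio overlapped. These ratios are not scaled for length and are compared only between libraries.

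**Figure D3:**
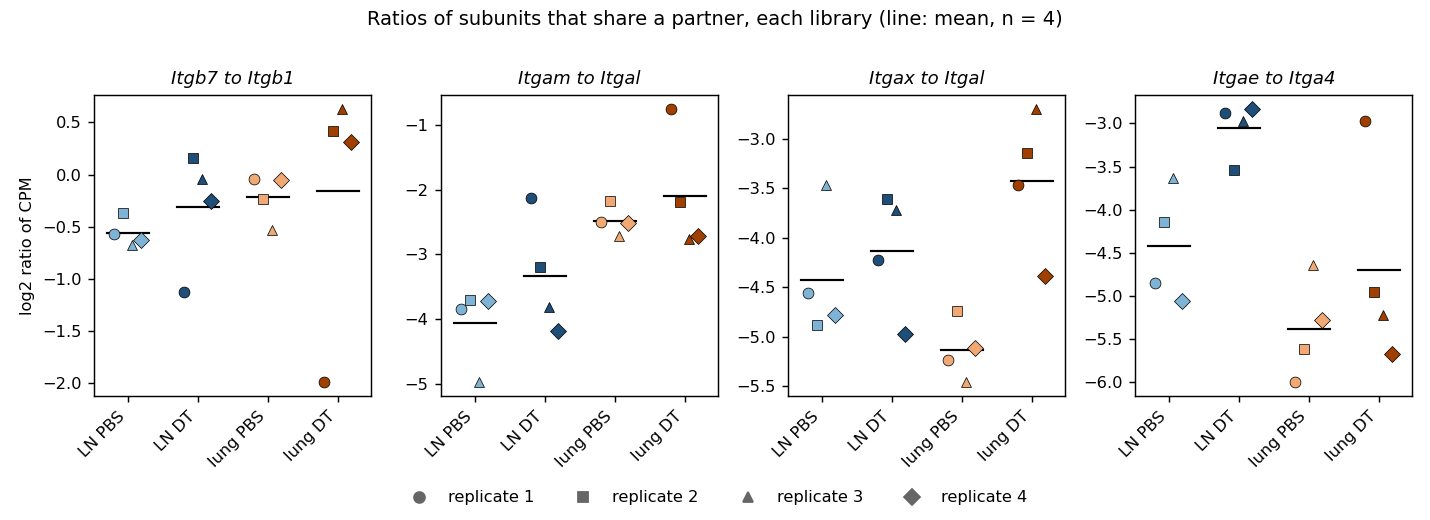
Log2 ratio of CPM (0.5 CPM added to each) for 4 pairs of subunits that share a partner, by group; shapes give the replicate and the line the mean (n = 4). The ratio of Itgam to Itgal is higher in lung PBS than in LN PBS, and the ratio of Itgae to Itga4 is higher in LN DT (-3.54 to -2.83) than in LN PBS (-5.06 to -3.63), without overlap.

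Itgax (CD11c), whose gene starts downstream of Itgam on chromosome 7, showed another pattern. It read 30.5, 34.4, 60.7 and 37.6 CPM in LN PBS and 19.9, 47.8, 42.6 and 34.3 CPM in LN DT. In lung it read 24.8, 39.96, 19.9 and 21.2 CPM with PBS (26.5 ± 9.22) and 32.6, 89.9, 117.6 and 38.5 CPM with DT (69.6 ± 41.0). Lung DT 2 and 3 were the highest of all 16 libraries, and the lung groups overlapped at lung PBS 2. The log2 fold change of DT in lung was 1.40 ± 0.42 with an adjusted p of 0.168 in edgeR's test, over the threshold, and 1.46 with an adjusted p of 0.0332 in DESeq2. Without both DT libraries numbered 1 it was 1.57 with an adjusted p of 0.0301 in edgeR. These were the only 2 of 24 alternatives that called Itgax with DT in lung. In edgeR the log2 fold change was 1.51 with the mitochondrial covariate (adjusted p = 0.972) and 1.23 with the replicate block (adjusted p = 0.155). In LN it was -0.17 ± 0.41 (adjusted p = 0.914). The difference of the 2 DT effects, LN minus lung, was -1.57 ± 0.59 with an unadjusted p of 0.0154 and an adjusted p of 0.9999. Lung DT 2 and 3 also had high sums of the macrophage and monocyte list, 4046 and 3648 CPM. Lung PBS 2, with 3623 CPM, had Itgax at 39.96 CPM. The part of these cells in Itgax was not tested.

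Itgb1, the shared beta subunit of the collagen receptors and of VLA-4, read 877.7, 676.3, 1041 and 881.4 CPM in LN PBS (869 ± 150). In LN DT it read 257.2, 249.8, 267.1 and 644.9 CPM (355 ± 194). Every LN DT library lay below every LN PBS library, and LN DT 4 lay nearest to them. The log2 fold change was -1.29 ± 0.38, a 2.45-fold lower level, with an adjusted p of 0.216 in edgeR, which did not pass, and 0.0420 in DESeq2. Without LN DT 4 edgeR gave an adjusted p of 0.0392. When the mitochondrial share was added as a covariate, the log2 fold change was -0.58 and the adjusted p was 1. In lung Itgb1 read 835.8, 659.4, 755.0 and 297.2 CPM with PBS and 571.0, 266.4, 231.1 and 363.9 CPM with DT, with overlap. The lung log2 fold change was -0.83 ± 0.38 (adjusted p = 0.319), and 0.06 with the mitochondrial covariate. Lung PBS 4, the lowest of the PBS libraries, had the highest mitochondrial share of that group, 2.57%. The lung DT libraries did not follow this order: lung DT 1, their highest at 571.0 CPM, had 4.26%, and lung DT 2, at 266.4 CPM, had 3.22%. As given above, the share and DT can hardly be told apart.

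Transcripts of other cell types also differed between LN PBS and some LN DT libraries. The 8 B cell markers summed to 59.4 to 125 CPM in LN PBS and to 137.6, 868, 833 and 96.4 CPM in LN DT 1 to 4, with overlap. The 8 dendritic cell markers summed to 31.2 to 57.2 CPM in LN PBS and to 51.7, 182, 350 and 55.1 CPM in LN DT. Both lists were thus highest in LN DT 2 and 3. The 7 plasma cell markers summed to 288 to 351 CPM in LN PBS and 453 to 727 CPM in LN DT, without overlap. Among them Jchain, the joining chain of secreted immunoglobulin, had a mean of 0.0613 CPM in LN PBS and 201 ± 109 in LN DT, and edgeR called it (adjusted p = 0.0244). Most of the LN PBS sum was Xbp1, at 259 CPM against 291 in LN DT, and Prdm1, at 40.6 against 53.7. Mzb1 had 4.91 CPM in LN PBS and 34.3 in LN DT, and Sdc1, the other way, 0.744 and 0.449. Tnfrsf17 and Derl3 had means of at most 1.95 CPM in these groups. Of the tested markers, 0 of 8 for B cells, 1 of 4 for plasma cells and 0 of 6 for dendritic cells were called with DT in LN (0.0646% of all genes), 3, 2 and 4 had an unadjusted p under 0.05 (11.8%), and DESeq2 called 0, 1 and 2 (2.32%). In LN PBS the plasma cell marker Tnfrsf17 and the dendritic cell markers Clec9a and Cd209a were at 0. The part of these cells in the values of Itgb1, Itgae and the other integrin genes in LN DT was not tested.

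Itgb7, the beta chain of the gut-homing integrin, read 592.3, 525.0, 653.8 and 570.4 CPM in LN PBS (585 ± 53.5). In LN DT it read 117.9, 279.1, 258.4 and 540.9 CPM (299 ± 176), and LN DT 4 overlapped the PBS group. In lung it read 810.1, 559.5, 523.2 and 285.9 CPM with PBS and 143.2, 355.1, 357.5 and 451.6 CPM with DT. The DT log2 fold change was -0.97 ± 0.41 in LN and -0.74 ± 0.41 in lung, with adjusted p of 0.362 and 0.412. With the mitochondrial share as a covariate these values were 0.05 and 0.44. The log2 ratio of Itgb7 to Itgb1 lay between -0.67 and -0.36 in LN PBS. In lung DT it was -1.99 in replicate 1 and 0.41, 0.63 and 0.31 in the others.

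**Figure D4:**
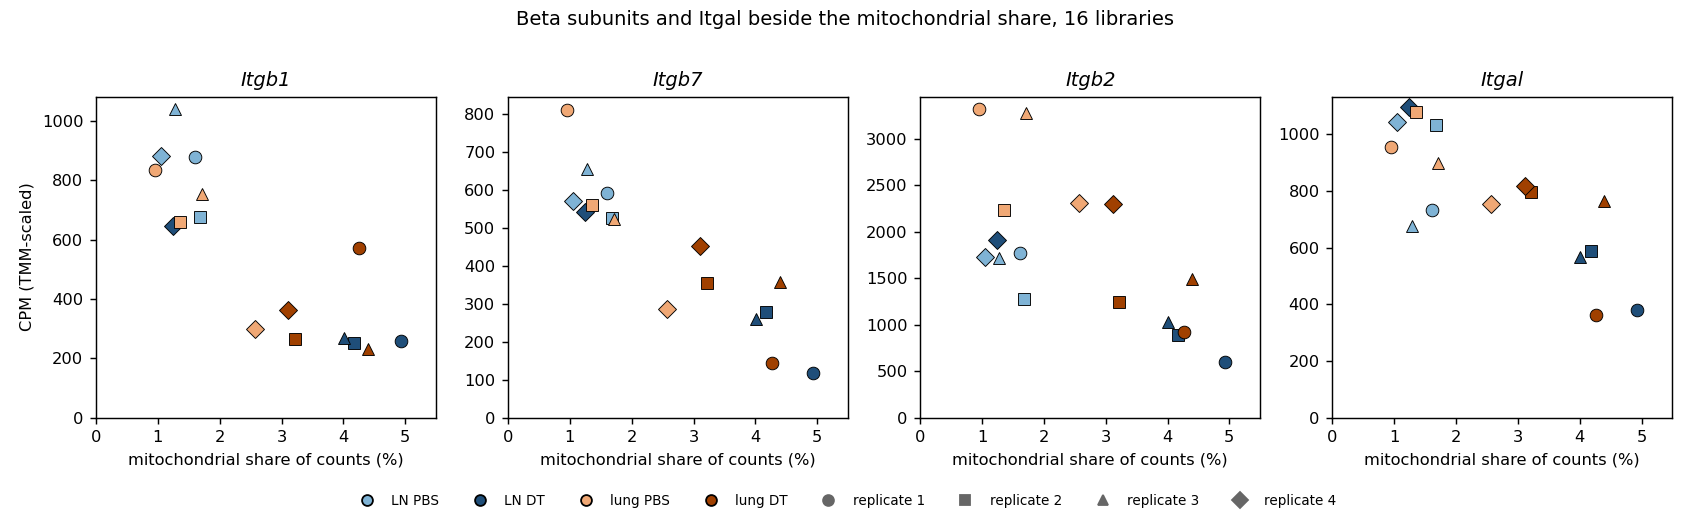
CPM of Itgb1, Itgb7, Itgb2 and Itgal (linear axis from 0) against the mitochondrial share of counts in percent, in 16 libraries; colours give the group and shapes the replicate. The 3 LN DT libraries with shares of 4.01 to 4.93% have the lowest Itgb2 and Itgb7 values of the LN libraries, and LN DT 4, at 1.24%, lies among or near the PBS libraries.

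Itga4, the alpha chain of VLA-4 and of the MAdCAM-1 receptor, read 425.8, 261.1, 213.3 and 299.7 CPM in LN PBS and 244.2, 307.1, 300.7 and 210.0 CPM in LN DT. In lung it read 470.5, 351.3, 384.8 and 493.1 CPM with PBS and 399.3, 484.0, 472.4 and 385.5 CPM with DT. In DT mice all lung libraries lay above all LN libraries. There the log2 fold change from LN to lung was 0.71 ± 0.24, with an adjusted p of 0.0838 in edgeR and 0.0179 in DESeq2. In PBS mice it was 0.50 ± 0.24 (adjusted p = 0.297), and DT against PBS gave -0.18 ± 0.24 in LN and 0.03 ± 0.24 in lung (-0.19 with the mitochondrial covariate). Itga4 shares 1124 bases, 8.04% of its exon length, with Cerkl on the other strand, and the strand setting used in counting is unknown.

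Itgae (CD103), the E-cadherin-binding partner of Itgb7, was a low transcript. It read 14.3, 14.3, 16.7 and 8.48 CPM in LN PBS and 32.7, 25.9, 38.0 and 29.1 CPM in LN DT, without overlap. The log2 fold change was 1.22 ± 0.52 with an adjusted p of 0.361, so Itgae did not pass, and it was 0.71 with the mitochondrial covariate. In lung it read 6.85, 6.66, 14.99 and 12.2 CPM with PBS and 50.6, 15.2, 12.2 and 7.07 CPM with DT. Lung DT 1 was the highest of all 16 libraries, and the other lung DT libraries overlapped the PBS group. The lung log2 fold change was 1.06 ± 0.52 (adjusted p = 0.353), 0.50 with the mitochondrial covariate and 0.11 without both DT libraries numbered 1. Without lung DT 1, Itgae was lower in lung DT than LN DT, at -1.42 with an adjusted p of 0.0380, against -0.56 ± 0.51 (0.595) with it. T cells can also express CD103. Their list summed to 3577 CPM in LN DT 1 and 1788 CPM in lung DT 1, the highest of their tissues. In the other 14 libraries it summed to 831 to 1864 CPM. Most of the sum was Trbc1, with means of 1514 CPM in LN DT and 950 in lung DT. Of 10 tested markers, 7 rose with DT in LN and 3 fell: Cd3e, Cd3g and Trac. In lung 9 rose and 1, Cd4, fell. edgeR called 0 in LN (0.0646% of all genes) and 0 in lung (0.108%). The part of T cells in Itgae was not tested.

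Itga2 (CD49b), the collagen receptor chain of the DX5 gate, was detected in all libraries. It read 80.0, 84.6, 73.4 and 69.8 CPM in LN with PBS and 62.9, 107.9, 133.9 and 99.9 with DT. In lung it read 87.4, 67.2, 138.8 and 159.8 with PBS and 64.6, 89.7, 135.8 and 134.5 with DT. All groups overlapped, and the lowest adjusted p of the 5 comparisons was 0.402. Itga1 (CD49a), a collagen receptor chain used as a marker of tissue-resident NK cells and ILC1, had 137 counts in all. It had 0, 0, 9 and 9 counts in LN with PBS and 23, 5, 2 and 24 with DT, and in lung 5, 0, 11 and 0 with PBS and 12, 0, 17 and 20 with DT. At this depth no difference of Itga1 was detectable, and its log2 fold changes had SE of 1.44 or more.

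**Figure D5:**
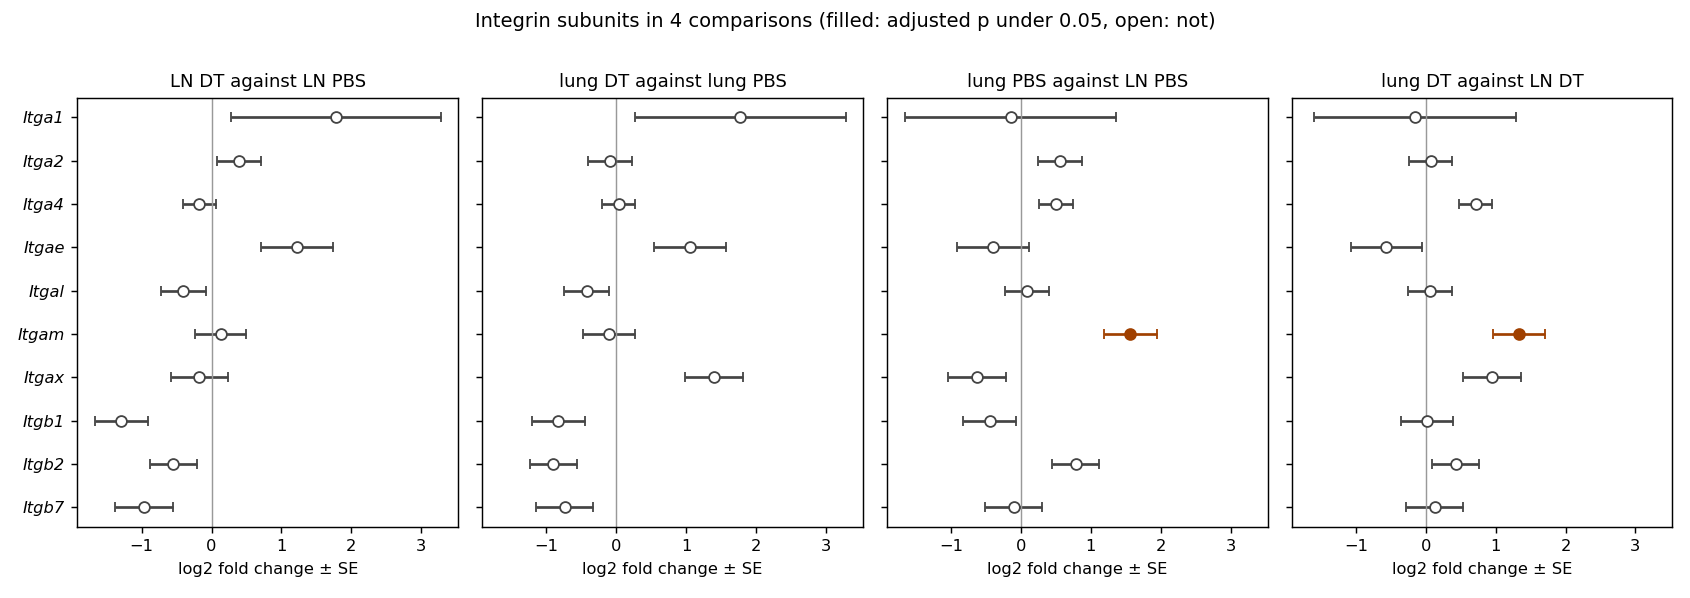
Log2 fold change ± SE (x axis) of the 10 integrin genes in DT against PBS in LN and in lung, and in lung against LN with PBS and with DT; filled points have an adjusted p under 0.05. The 2 filled points are Itgam between the tissues, at 1.56 and 1.33.

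Counted together, 0 of the 10 genes passed edgeR's test with DT in LN, where 0.0646% of all tested genes were called. At an unadjusted p under 0.05 there were 3 (11.8% of all genes), and by DESeq2 there was 1, Itgb1 (2.32%). The LN groups did not overlap for 2 of the 10, Itgb1 and Itgae, against 8.47% of all genes. The members' median log2 fold change was -0.17, against 0.08 over all tested genes. In lung 0 passed edgeR's test with DT (0.108% of all genes), 3 had an unadjusted p under 0.05 (14.7%) and DESeq2 called 1, Itgax (3.27%). No member's lung groups were free of overlap, against 7.88% of all genes, and the members' median was -0.10 against 0.09. The DT effects of the tissues differed for 0 of the 10 in edgeR (0.00717% of all genes), for 1 at an unadjusted p under 0.05 (4.2%) and for 0 in DESeq2 (0.136%).

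Between the tissues 1 of 10, Itgam, was called in PBS mice, by edgeR (3.61% of all genes) and by DESeq2 (8.46%), and 1 of 10, again Itgam, in DT mice by edgeR (6.75%). In DT mice DESeq2 called 2 (12.4%), Itgam and Itga4. The libraries did not overlap for 2 genes in each case, Itgam and Itgb2 with PBS (19.2% of all genes) and Itgam and Itga4 with DT (11.6%). The medians of the members were -0.01 with PBS and 0.10 with DT, against -0.01 and -0.04 over all tested genes. The comparisons share their libraries and are not independent of each other.

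Of 16 other integrin subunits, 8 had enough counts to be tested and 0 passed edgeR's test in any comparison (0.00717 to 6.75% of all genes). With DT in LN the 8 gave 1 at an unadjusted p under 0.05 (11.8% of all genes) and 1 call by DESeq2 (2.32%), both Itgb3, the vitronectin receptor chain, at 13.2 ± 7.16 CPM in LN PBS and 49.0 ± 39.7 in LN DT. Its log2 fold change was 1.90 ± 0.59 (adjusted p = 0.227 in edgeR and 0.0445 in DESeq2), and the groups overlapped. B cell and dendritic cell markers were also higher in some LN DT libraries, as given above. Itgav, the alpha partner of Itgb3, stood at 58.1 ± 21.7 CPM in lung DT and 27.9 ± 4.18 in LN DT without overlap, a log2 fold change of 1.06 ± 0.33 that did not pass in edgeR (adjusted p = 0.0599). DESeq2 called it (adjusted p = 0.0107), and 4 of 26 alternatives did in all. In lung DT against LN DT, 2 of the 8 were higher and 1 lower at an unadjusted p under 0.05 (20.9%), and DESeq2 called 3 (12.4%). Itgb3 was among the DESeq2 calls and lower in lung, at -1.84 ± 0.59 (adjusted p = 0.0690 in edgeR and 0.0207 in DESeq2). With DT in lung, 1 of the 8 had an unadjusted p under 0.05 (14.7%), and DESeq2 called 0 (3.27%). Itgad, the remaining beta2 partner, had means of 6.61 to 12.4 CPM, and Itga6, a laminin receptor chain, 10.9 to 22.6 CPM. Itgb5 had at most 9.21 CPM.

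Among 16 genes that activate integrins, 14 were tested. With DT in LN, edgeR called 0 (0.0646% of all genes), 0 had an unadjusted p under 0.05 (11.8%) and DESeq2 called 0 (2.32%). In lung edgeR called 0 (0.108% of all genes), 4 had an unadjusted p under 0.05 (14.7%) and DESeq2 called 1 (3.27%). Between the tissues edgeR called 1 with PBS (3.61%) and 1 with DT (6.75%). Rap1b, a small GTPase that drives integrin activation, rose from 333 ± 57.3 CPM in LN PBS to 1210 ± 221 in lung PBS, a log2 fold change of 1.86 ± 0.34 (adjusted p = 0.00401). In DT mice its difference was 0.96 ± 0.33 (adjusted p = 0.0895 in edgeR and 0.0310 in DESeq2), from 512 ± 276 to 999 ± 394 CPM. Rasgrp1, an exchange factor upstream of Ras, was lower in lung DT than LN DT, at 63.2 ± 19.9 against 206 ± 38.1 CPM, with a log2 fold change of -1.70 ± 0.35 (adjusted p = 0.00816). In PBS mice its difference was -0.67 ± 0.34 (adjusted p = 0.349). Rasgrp2, the exchange factor for Rap1, gave 0.65 ± 0.27 in PBS mice (adjusted p = 0.211) with libraries that did not overlap. Fyb, an adaptor of the same pathway, gave 0.32 with DT in LN and 0.45 with DT in lung, without overlap in either tissue and with adjusted p of 0.531 and 0.284 in edgeR. The DESeq2 call with DT in lung was Fyb (adjusted p = 0.0357).

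All 10 genes of the list that restrains integrins were tested. With DT, edgeR called 0 in LN (0.0646% of all genes) and 0 in lung (0.108%), with 1 (11.8%) and 0 (14.7%) at an unadjusted p under 0.05. DESeq2 called 0 in LN (2.32%) and 0 in lung (3.27%). Cytip, which binds cytohesin-1 and limits LFA-1 adhesion, rose from LN to lung in both treatments: from 246 ± 26.8 to 532 ± 28.4 CPM with PBS and from 278 ± 53.7 to 691 ± 150 CPM with DT. Its log2 fold changes were 1.11 ± 0.22 (adjusted p = 0.00669) and 1.32 ± 0.22 (adjusted p = 0.00171), with no overlap. Rap1gap2, a GTPase-activating protein for Rap1, was higher in lung DT than LN DT, at 157 ± 72.9 against 50.1 ± 19.6 CPM with overlapping libraries. It had a log2 fold change of 1.65 ± 0.39 (adjusted p = 0.0160). In PBS mice Sipa1, another Rap1 inactivator, had 251 CPM in LN and 114 in lung, a log2 fold change of -1.14 ± 0.41 that did not pass (adjusted p = 0.139). Itgb1bp1, which binds the beta1 tail, gave 0.80 ± 0.33 with DT in LN (adjusted p = 0.341), and Rasa3 gave -0.93 ± 0.45 (adjusted p = 0.428).

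Of 18 genes of the adhesion complex and its signalling, 14 were tested and edgeR called 0 in any comparison (0.00717 to 6.75% of all genes). An unadjusted p under 0.05 was found for 0 with DT in LN (11.8% of all genes), 1 with DT in lung (14.7%), 1 between the tissues with PBS (16.9%) and 4 with DT (20.9%). DESeq2 called 1, between the tissues with DT (12.4%). The lowest p values with DT in LN belonged to Zyx, a component of focal adhesions, at -0.90 ± 0.54 (adjusted p = 0.550), and Parvg, a parvin of blood cells, at -0.74 ± 0.49 (adjusted p = 0.585). In lung, Crk, an adaptor protein, gave 0.78 ± 0.37 with DT (adjusted p = 0.333), and Lims1 gave 0.35 ± 0.23 (adjusted p = 0.486). Ptk2, the focal adhesion kinase, had at most 2.02 CPM in any group.

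Of 15 integrin ligands, 9 were tested. With DT, edgeR called 0 in LN (0.0646% of all genes) and 0 in lung (0.108%), and DESeq2 called 0 in each (2.32% and 3.27%). In LN 3 (11.8% of all genes) and in lung 2 (14.7%) had an unadjusted p under 0.05. Icam1, the ligand of LFA-1 and Mac-1, was higher in lung DT than LN DT, at 456 ± 200 against 157 ± 57.7 CPM with overlapping libraries. It had a log2 fold change of 1.54 ± 0.36 (adjusted p = 0.0170). In PBS mice it gave 0.85 ± 0.36 (adjusted p = 0.226), from 193 to 348 CPM. Icam2, a further LFA-1 ligand, gave -0.66 ± 0.27 with DT in LN (adjusted p = 0.334), and every LN DT library lay below every LN PBS library. Thy1 gave 1.68 ± 0.69 with DT in LN and 1.47 ± 0.69 in lung, without overlap in either tissue, with adjusted p of 0.348 and 0.335. Spp1, osteopontin, had a mean of 349 CPM in lung DT and 50.9 in lung PBS with overlap (adjusted p = 0.247). Col4a1 and Fn1, matrix proteins, were called higher in lung DT than LN DT with overlapping libraries, at means of 2.25 and 24.2 CPM. Col4a1 had 0 counts in LN DT. The Col4a1 call was kept in 14 of 23 alternatives and the Fn1 call in 14 of 24: both were lost without any 1 of the 4 LN DT libraries or without lung DT replicate 2, Col4a1 also without lung PBS replicate 1, 2 or 3, and Fn1 also without lung PBS replicate 3 or lung DT replicate 3. Both calls were also lost with the replicate number as a block, and Fn1 with no filter and without both DT libraries numbered 1. Over all their alternatives the adjusted p reached 0.0949 and 0.111. With the DT libraries alone in the fit, Rap1gap2 and Icam1 did not pass (adjusted p = 0.113 and 0.124). The lung libraries, in which Rap1b, Cytip, Rap1gap2, Icam1, Col4a1 and Fn1 were called higher, are also those with the macrophage and neutrophil sums given above, and the part of those cells in these differences was not tested.

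The integrin genes most alike over the 16 libraries were Itgal and Itgb7, with a Pearson r of 0.866 on log2(CPM + 1), and 0.836 over the 8 LN and 0.913 over the 8 lung libraries. Itgb2 and Itgb7 gave 0.787 (0.955 and 0.83), and the LFA-1 chains Itgal and Itgb2 gave 0.739 (0.820 and 0.759). Itgam and Itgb2 gave 0.229 (-0.371 and -0.283). Itgae ran opposite to Itgal at -0.729 (-0.599 and -0.913). The libraries share group and mitochondrial share, so these values describe them only.

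Among all tested genes of at least 10 CPM, those most like each member over the 16 libraries were the following. Itgb7 was nearest to Pex5 (r = 0.965) and Rac2 (0.956), Itgal to Laptm5 (0.952) and H2-D1 (0.951), and Itgb2 to Pttg1ip and Aplp2 (both 0.947). Itgb1 was nearest to Gltp (0.929) and Lsp1 (0.919), and Itgam to Emp1 (0.933) and Fam126a (0.925). Itgax was nearest to Fgr (0.863), a Src-family kinase of myeloid and NK cells, with 0.459 in LN and 0.959 in lung, and to Napsa (0.852). Itga4 was nearest to Sirt1 (0.860) and Zeb2 (0.854), with 0.0661 and 0.0281 within lung. Itgae was nearest to D030028A08Rik (0.893) and D130040H23Rik (0.880), Itga2 to Stx5a (0.866) and Rsrp1 (0.861), and Itga1 to Slc37a3 (0.773) and Taf2 (0.747).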

How the data were processed

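RNA of sorted NK cells was measured in 16 Smart-seq2 libraries. Per the submitters' processing notes, HISAT2, HTSeq and the build GRCm38 were used, and neither tool's version was stated. The table deposited by the authors holds raw read counts per Ensembl gene, whole numbers in every cell. No column of another sample was present, and no 2 libraries were identical. The 10 genes and the gene lists were chosen with earlier results of these data known.

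Counts were filtered with filterByExpr of edgeR 4.0.16 (R 4.3.3; minimum count 10, minimum total 15), scaled by TMM and fitted in 1 quasi-likelihood model of the 4 group means (robust, 12 residual degrees of freedom, common biological coefficient of variation 0.621). Two-sided F tests were adjusted by Benjamini-Hochberg over all 13940 genes, with calls at an adjusted p under 0.05. SE follow from the F statistic. The script was tested on simulated data. CPM per kilobase used the longest coding GENCODE transcript within the table's gene bounds.

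Named genes are the 10 members, the 2 tested genes of lowest p per integrin list with DT in either tissue and between tissues with PBS, every called gene of the 5 lists, and the 2 genes most correlated with each member. Alternatives were median-ratio size factors, 2 other gene filters, the replicate number as a block, DESeq2 1.42.0, each library left out, both DT libraries numbered 1 left out (they stood apart in earlier results) and the mitochondrial share as a covariate. Summing the Itgam models and fitting the DT libraries alone were chosen after seeing the data. Deviations of same-numbered LN DT and lung DT libraries correlated at 0.494, 0.233, 0.259 and 0.216. Some differently numbered libraries correlated as highly: LN DT 2 with lung DT 3 at 0.258 and LN DT 3 with lung DT 2 at 0.207. The other differently numbered ones ran from -0.35 to 0.0462. Pairing by number was thus not established, and the labels name no shared animal.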

Additional observations from a re-analysis of the deposited data

Results flagged for a closer look

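Of 40 groups of 4 values (10 genes in 4 groups), 3 held a library set apart from the other replicates by a larger share of the group's range than the 95% limit of Dixon's test. Chance gives about 1 such group in 20. Itgal in lung DT replicate 1 read 363.8 CPM, while the other lung DT libraries read 765.8 to 817.1 CPM. Itgb1 in LN DT replicate 4 read 644.9 CPM, while the others read 249.8 to 267.1 CPM. That library had a mitochondrial share of 1.24%, against 4.01 to 4.93% in the other LN DT libraries. Itgb2 in LN PBS replicate 2 read 1280 CPM, while the others read 1719 to 1772 CPM.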

How the results depend on the processing

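No alternative turned the direction of Itgam between the tissues or of Itgb1 with DT in LN. The members called changed as follows. DESeq2 called 1 with DT in LN (Itgb1), 1 with DT in lung (Itgax) and 2 in lung DT against LN DT. Without both DT libraries numbered 1 there was 1 with DT in lung (Itgax) and 2 in lung DT against LN DT. With the mitochondrial covariate 2 were called in lung PBS against LN PBS (Itgam, Itgb2). With the DT libraries alone and no block 0 were called in lung DT against LN DT, where Itgam had an adjusted p of 0.0737, and with the block it had 0.0113. Each library left out gave 0 to 1 member called with DT in LN, 0 to 1 in each comparison of tissues and 0 with DT in lung and for the interaction.

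Of all genes, 9 were called with DT in LN, 15 with DT in lung, 1 in the interaction, 503 in lung PBS against LN PBS and 941 in lung DT against LN DT. DESeq2 gave 323, 456, 19, 1179 and 1733 in this order. Without both DT libraries numbered 1 there were 24, 474 and, for lung PBS against LN PBS, 1362. With the mitochondrial covariate there was 1 with DT in LN and 1 with DT in lung. Without a filter 23 were called with DT in LN. The replicate block gave 0 for the interaction, and within the DT libraries alone 515 with and 322 without the block. Leaving out each library gave 0 to 122 (the most without LN DT 4), 1 to 129 (without lung DT 4), 0 to 3, 268 to 992 (without lung DT 1) and 471 to 1554 (without lung DT 1). The causes were not tested. Pairing by number was not established for LN DT and lung DT. Their same-numbered correlations ran from 0.216 to 0.494, and LN DT 2 with lung DT 3 gave 0.258. For the other pairs of groups the same-numbered correlations ran from -0.153 to 0.263, and the block is given for the shared number only.

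The direction of some members changed in comparisons in which they did not pass. Without both DT libraries numbered 1, log2 fold changes with DT in LN were -0.0642 for Itgam and 0.0114 for Itgax, and with DT in lung 0.0196 for Itga2. They were -0.55 for Itga1 and 0.0597 for Itgb1 in the interaction, and 0.44 for Itga1 and -0.46 for Itgb1 in lung DT against LN DT. With the mitochondrial covariate they were 0.27 for Itgal, 0.20 for Itgb2 and 0.0534 for Itgb7 in LN, -0.19 for Itga4, 0.31 for Itgal, 0.0567 for Itgb1 and 0.44 for Itgb7 in lung, and -0.0382 for Itgal in the interaction. For the interaction, median-ratio size factors gave -0.0492 for Itga1 and -0.0287 for Itgal, DESeq2 gave -0.0783 and -0.0287, and a mean of at least 5 CPM gave -0.0001026 for Itgal. For Itgb1 in lung DT against LN DT, no filter gave -0.0286 and the replicate block -0.0076.

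With each library left out, the interaction ran from -1.24 to 0.64 for Itga1, -0.33 to 0.0167 for Itga4, -0.13 to 1.04 for Itgae, -0.33 to 0.23 for Itgal, -0.0297 to 0.44 for Itgam, -0.0396 to 0.66 for Itgb2 and -0.67 to 0.0511 for Itgb7. DT in LN ran from -0.31 to 0.0406 for Itga4, -0.15 to 0.32 for Itgam and -0.34 to 0.0824 for Itgax. DT in lung ran from -0.33 to 0.11 for Itga2, -0.10 to 0.10 for Itga4 and -0.35 to 0.0526 for Itgam. Lung DT against LN DT ran from -0.53 to 0.48 for Itga1, -0.0761 to 0.28 for Itga2, -0.12 to 0.42 for Itgal, -0.29 to 0.47 for Itgb1 and -0.13 to 0.57 for Itgb7. Lung PBS against LN PBS ran from -1.38 to 0.48 for Itga1, -0.0185 to 0.18 for Itgal and -0.36 to 0.11 for Itgb7. A filter at 5 CPM leaves no value for Itga1, whose 137 counts limit any statement on it.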
